A study of Mus musculus with 28 samples.

Results

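Transcripts of 4 genes of the Zic family, Zic1, Zic2, Zic4 and Zic5, were followed in cultured mouse neural stem cells (NSCs), peripheral neural stem cells (pNSCs), neural crest stem cells (NCSCs) and tissue cells. They are 4 of the 28244 genes in the count table, and all 28 RNA-seq libraries in 11 groups were used. The 4 genes were chosen after Zic1 was seen to be on in brain NSCs and off in tail pNSCs. The levels in those 2 groups are therefore given as a description with no test, and Zic1 was tested only where neither brain NSCs nor tail pNSCs were compared.

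Zic proteins are zinc-finger transcription factors that are related to the GLI and GLIS families. In the embryo they are active in the dorsal neural tube, the neural crest and the cerebellum, and they keep neural progenitors dividing and delay their differentiation. Zic1 and Zic4 lie side by side on a chromosome and Zic2 and Zic5 on another, each pair read in opposite directions. Loss of Zic1 and Zic4 disturbs the growth of the cerebellum, Zic2 is needed for the forebrain midline and the closure of the neural tube, and Zic5 acts in the dorsal neural tube and the neural crest.

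The study asked whether NSCs can be grown from tissues outside the central nervous system and how they compare with brain NSCs and NCSCs. A first experiment held brain NSCs, lung pNSCs, tail pNSCs and cells labelled only Lung and Tail, with 2 libraries each. By the study's methods its pNSCs came from adult lung or postnatal tail cells that were sorted for GFP in Nes-GFP mice, which express GFP under Nestin regulatory elements. A second experiment held Sox2-GFP brain NSCs and Sox2-GFP lung pNSCs with 3 libraries each, from mice with GFP placed in the Sox2 gene. The last held 3 lines from Wnt1Cre-mTmG mice, from brain (NSCs), tail and dorsal root ganglion (DRG; both pNSCs), besides DRG NCSCs, with 3 libraries each. In Wnt1Cre-mTmG mice, cells with a history of Wnt1-driven Cre, which include the neural crest, turn green, and the pNSC lines obtained were red and not green. The Wnt1 label also marks midbrain cells, and the labels do not say which colour the brain NSCs had. DRG NCSCs came from adult wild-type mice. By the study's text, the Sox2-GFP lung pNSCs and the Wnt1Cre-mTmG tail and DRG pNSCs came from postnatal mice. Adult mice were 4 to 6 weeks old and postnatal mice were 1 to 5 days old, and brain NSCs came from whole brain of either stage, with no age given by group. The study's reporting summary states that brain controls came, in most cases, from the same mice as the pNSCs, and names no groups. All libraries are labelled C57BL/6, while the methods state that transgenic mice were crossed to CD1 or CD1 and C3H stock. All stem cells grew in a medium with EGF and bFGF. A pNSC line grew from a single picked cluster and was usually clonal, so a group can stand for 1 line. The study calls its replicates biological, but no source used here says whether they are separate lines, animals or cultures of a line, so p-values measure the spread between these libraries, which may be technical.

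Library totals ran from 9808246 to 22637031 counts, and the Wnt1Cre-mTmG brain NSC and DRG pNSC libraries were the shallowest, at 9808246 to 11431445. Levels are cpm, the counts divided by the library size in units of 1e6, scaled by TMM, a trimmed mean of ratios between libraries, and 3 counts in a library, taken here as the floor of detection, stand for 0.130 to 0.295 cpm. Counts of replicates differed by 1.09 to 2.82 times the counting variance, apart from DRG NCSC replicate 3, which differed from the other DRG NCSC libraries by 16.8 and 21.0 times. The Zic tests used against DRG NCSCs are therefore also given without that library, while the GLI and GLIS genes are given only with it. Markers of neural stem cells (Sox2, Sox1, Nes, Olig2, Pax6 and Fabp7) were over the floor in every library for 6 of 6 genes in all 8 NSC and pNSC groups, and their summed level there was 4346 to 6373 cpm. In DRG NCSCs 4 of the 6 were over the floor (sum 1443 to 1826 cpm), against 6 of 6 neural crest and Schwann markers (4255 to 4360 cpm). In tail cells 6 of 6 mesenchymal markers were over the floor and summed to 72249 to 74159 cpm, and in lung cells 5 of 5 lung epithelial markers summed to 25249 to 25818 cpm.

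In GENCODE M21 on GRCm38, Zic1 spans chr9:91358058-91365810 on the minus strand and Zic4 chr9:91362413-91389348 on the plus strand. These gene models overlap by 3398 bases and share 60 exon bases. No source used here says whether counting used strand, so reads from the shared part cannot be assigned with certainty. Zic5 spans chr14:122456795-122465677 on the minus strand and Zic2 chr14:122475435-122479852 on the plus strand. They do not overlap, and their start sites lie 9758 bases apart. All 4 are protein-coding.

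The bases upstream of Zic1, Zic4 and Zic5 are shown because the partners of each pair rank the groups in a similar order, as described further on. They are RefSeq promoter sequence on GRCm38.p6 and are written in the direction of the gene. Each run is cut before the first base that lies in an exon of an annotated coding transcript of that gene. The Zic4 run lies inside the span of the Zic4 gene model given above, upstream of a RefSeq start site within that span. Capitals mark CCAAT.
Zic1: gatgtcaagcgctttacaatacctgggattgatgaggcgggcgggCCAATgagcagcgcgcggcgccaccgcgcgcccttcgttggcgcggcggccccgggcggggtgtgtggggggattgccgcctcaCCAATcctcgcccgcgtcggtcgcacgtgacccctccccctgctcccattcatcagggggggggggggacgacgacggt
Zic4: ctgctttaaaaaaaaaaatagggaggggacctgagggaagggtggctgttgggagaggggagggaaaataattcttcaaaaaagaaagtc
Zic5: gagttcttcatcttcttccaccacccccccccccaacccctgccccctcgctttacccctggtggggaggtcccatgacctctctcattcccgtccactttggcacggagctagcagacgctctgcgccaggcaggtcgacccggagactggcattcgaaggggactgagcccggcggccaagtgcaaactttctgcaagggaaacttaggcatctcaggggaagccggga

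The Zic1 run is chr9:91365811-91366018 (208 bases), the Zic5 run chr14:122465678-122465908 (231 bases) and the Zic4 run chr9:91368722-91368811 (90 bases). G and C content and CpG were taken over the full window of 250 bases upstream of the RefSeq start site. Each run is the first part of its window. The windows had 66% G and C and 27 CpG for Zic1, 62.4% and 11 CpG for Zic5, and 44.4% and 4 CpG for Zic4. Over 32851 windows of 250 bases upstream of 27025 genes, the medians were 52.4% and 6 CpG. The Zic1 window, at 27 CpG, had more than 91.4% of the windows. CCAAT, searched on both strands, occurred 2 times in the Zic1 run and in neither of the other runs, and 33.8% of all windows hold it. TATAAA, in 12.4% of all windows, and CAGCAGG, in 8.44%, were in none of the 3 runs, nor in the full windows of 250 bases of these 3 genes. The printed runs are shorter than the windows, so the window values do not describe the runs alone. A match of letters is a description of the sequence only, and the Zic2 promoter was not analysed here.

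Zic1 had its highest levels in the brain NSCs and lung pNSCs of the first and the Sox2-GFP experiments. Wnt1Cre-mTmG brain NSCs lay below tail cells and DRG NCSCs. The counts were 1599 and 1575 in brain NSCs, 2093, 2731 and 2078 in Sox2-GFP brain NSCs, 1980 and 1676 in lung pNSCs and 2483, 2555 and 2597 in Sox2-GFP lung pNSCs. The corresponding means were 78.9 ± 3.10 cpm (SD, n = 2), 119 ± 1.27 (n = 3), 93.7 ± 0.240 (n = 2) and 118 ± 2.01 (n = 3). Lung pNSCs were thus in the range of the brain NSCs of these experiments or above it.

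In tail pNSCs the Zic1 count was 0 in both libraries, and this is the pattern by which the genes were chosen. Against the floor, Zic1 was at least 488-fold lower there than in brain NSCs and at least 580-fold lower than in lung pNSCs. Wnt1Cre-mTmG tail pNSCs had 19, 10 and 21 Zic1 counts (0.782 ± 0.301 cpm, n = 3), and Wnt1Cre-mTmG brain NSCs had 63, 40 and 55 (4.71 ± 0.881 cpm, n = 3), a 6.03-fold lower mean in the tail line. The low level in tail lines was therefore met in both experiments, as 0 in the first and as a low but counted level in the other. DRG pNSCs had 0, 0 and 1 count, and their summed count over summed library size was 153-fold lower than in brain NSCs of that experiment, with a 95% exact counting interval from 27.1 to 6089 that covers counting error only.

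The 3 brain NSC groups did not share a Zic1 level. Wnt1Cre-mTmG brain NSCs lay below every library of the other brain NSC groups, with a log2 ratio to the first brain NSCs of -3.81 after 1 cpm was added to each mean. The same ratio was -1.26 for Zic2, -1.94 for Zic4 and -1.46 for Zic5, so all 4 members were lowest in that brain line. The experiment and the line cannot be told apart here, and no test was made. Astrocyte markers (Gfap, Aqp4, Aldh1l1 and S100b) summed to 126 to 128 cpm in brain NSCs, 914 to 920 in Sox2-GFP brain NSCs and 1125 to 1150 in Wnt1Cre-mTmG brain NSCs. Aldh1l1 alone made the last sum the highest (966 against 499 cpm in Sox2-GFP brain NSCs). Gfap (46.4 against 108 cpm), Aqp4 (113 against 242) and S100b (14.4 against 66.5) were lower there than in Sox2-GFP brain NSCs. S100b was also below the 38.2 cpm of the first brain NSCs. The part of these markers in the Zic difference was not tested. In bulk RNA, fewer cells with a transcript and less of it per cell cannot be told apart.

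Outside the NSC groups, Zic1 was at 8.38, 9.45 and 9.03 cpm in DRG NCSCs (181, 200 and 155 counts) and at 11.3 and 9.82 cpm in tail cells (201 and 154 counts). It was at 0 counts in both lung cell libraries. Tail cells, with a mean of 10.6 ± 1.03 cpm, thus had more Zic1 than the tail pNSCs grown from that tissue, in which it was at least 65.3-fold lower. Mesenchymal markers, which are high in tail cells, summed to 10.3 to 11.3 cpm in tail pNSCs and to 414 to 422 cpm in Wnt1Cre-mTmG tail pNSCs, the tail line in which some Zic1 was counted. They summed to 2800 to 3448 cpm in DRG NCSCs, and to 4150 to 4249 cpm in lung cells, in which Zic1 was at 0. Markers of meningeal fibroblasts, cells in which Zic1 is known to be active, summed to 147 to 152 cpm in tail cells and 36.4 to 37.0 in DRG NCSCs. They summed to 25.7 to 29.0 cpm in lung cells and 9.77 to 25.5 in the NSC and pNSC groups, and Slc22a6 was at 0 in all groups. Foxd1 and Crabp2 ranked tail cells, DRG NCSCs and lung cells as the sums did, but not every marker did. Aldh1a2 was at 1.00 cpm in tail cells against 21.3 in lung cells and 14.3 in DRG NCSCs. Foxc1 was at 93.0 cpm in tail cells but at 9.49 in DRG NCSCs, below the 23.8 of tail pNSCs. The part of mesenchymal or meningeal cells in the Zic1 levels was not tested.

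**Figure D1:**
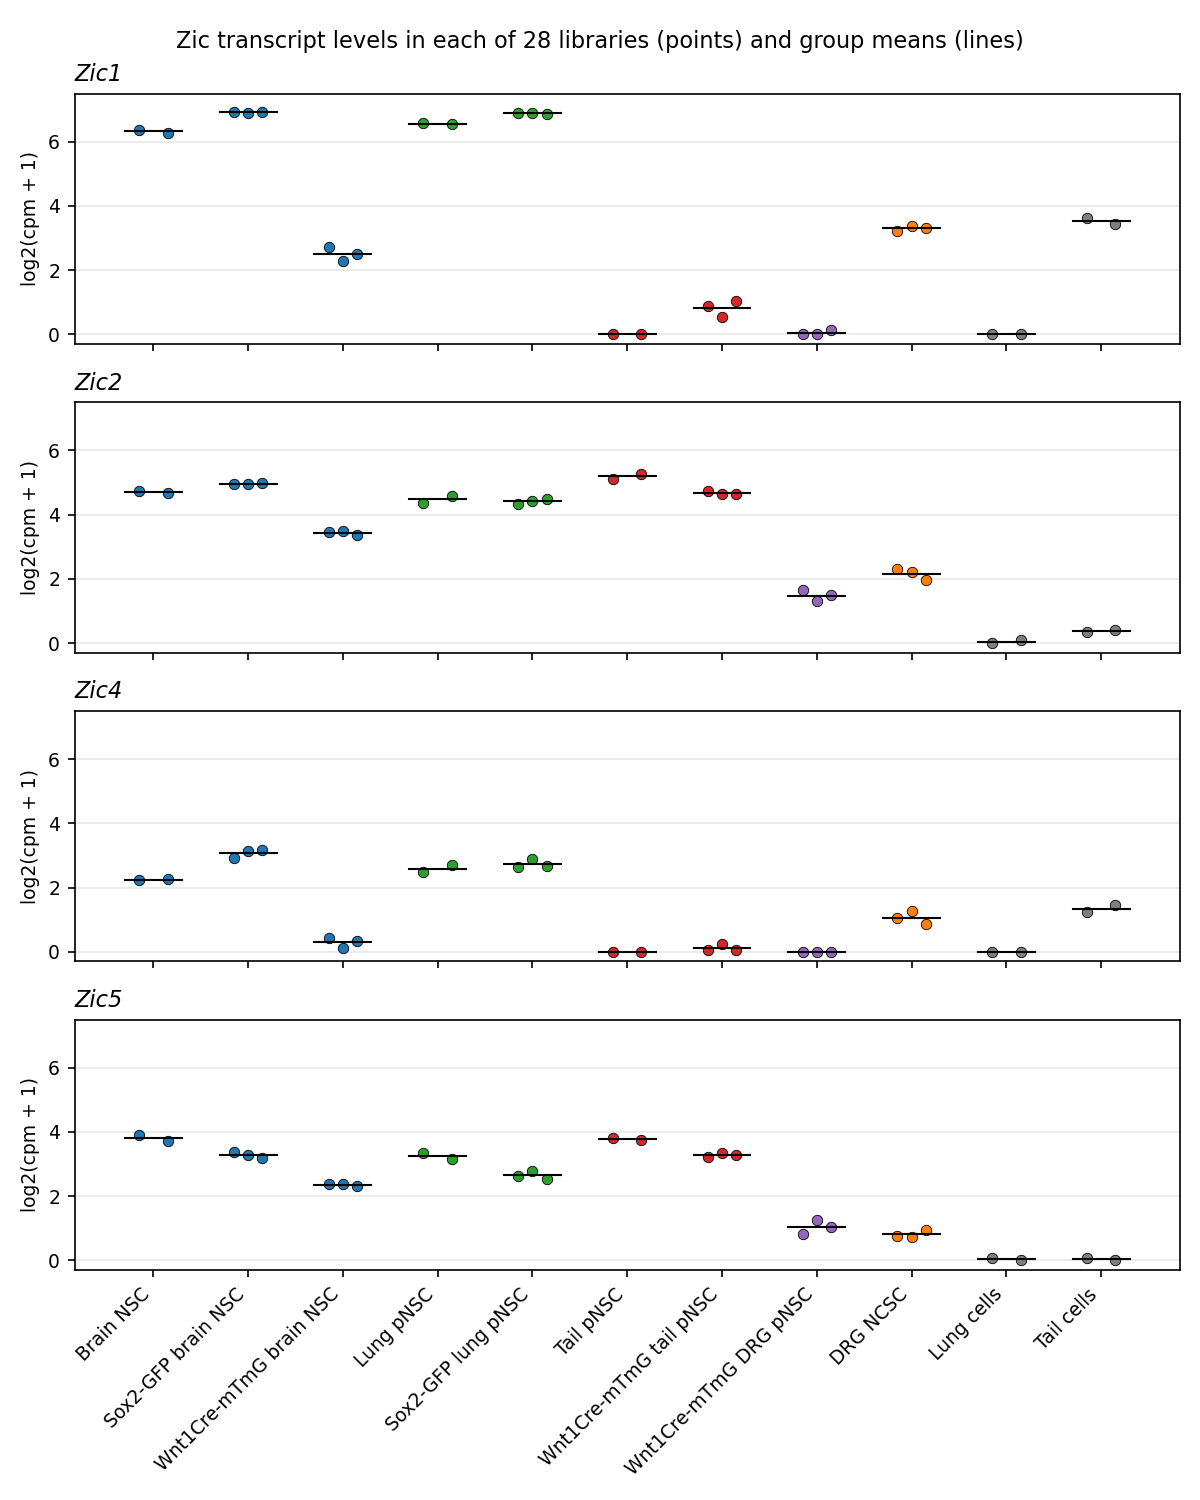
Level of each Zic gene as log2(cpm + 1) in every library (points) and as group means (lines) in the 11 groups, coloured by origin. Zic1 and Zic4 drop to 0 in tail pNSCs while Zic2 and Zic5 stay within or above the range of the brain NSC groups, and Zic2 and Zic5 are near 0 in lung and tail cells.

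Zic4, the neighbour of Zic1, ranked the groups in a similar order. It had 73 and 78 counts in brain NSCs (3.75 ± 0.0684 cpm), 113, 181 and 140 in Sox2-GFP brain NSCs (7.46 ± 0.824 cpm), 96 and 98 in lung pNSCs (5.01 ± 0.649 cpm) and 109, 137 and 120 in Sox2-GFP lung pNSCs (5.64 ± 0.634 cpm). It was at 0 in both tail pNSC libraries, at least 23.2-fold lower than in brain NSCs. In the Wnt1Cre-mTmG lines Zic4 was close to the floor, with 4, 1 and 3 counts in brain NSCs, 1, 4 and 1 in tail pNSCs and 0 in all 3 DRG pNSC libraries. DRG NCSCs had 23, 30 and 14 counts (1.10 ± 0.303 cpm), tail cells had 24 and 27 (1.54 ± 0.265 cpm) and lung cells had 0 in both. Since Zic4 shares the locus of Zic1, its pattern is not independent of the choice of Zic1.

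Zic2 did not share the loss in tail pNSCs. Its highest level was in tail pNSCs, at 33.6 and 37.9 cpm (588 and 747 counts), 1.43-fold above the mean of brain NSCs at 25.4 and 24.6 cpm (501 and 505 counts), with no overlap. In the Wnt1Cre-mTmG lines, tail pNSCs had 25.7, 24.2 and 24.1 cpm and brain NSCs 10.0, 10.3 and 9.29 cpm, a 2.51-fold difference, again with no overlap. Sox2-GFP brain NSCs had 30.3 ± 0.205 cpm (n = 3), lung pNSCs 21.3 ± 2.12 (n = 2) and Sox2-GFP lung pNSCs 20.3 ± 0.951 (n = 3). DRG pNSCs were the lowest NSC group, with 25, 15 and 19 counts (1.81 ± 0.321 cpm), below DRG NCSCs with 85, 76 and 50 counts (3.48 ± 0.520 cpm). Lung cells had 0 and 1 count and tail cells 5 and 5.

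Zic5, the neighbour of Zic2, was highest in brain NSCs, at 14.1 and 12.1 cpm (278 and 248 counts), and tail pNSCs overlapped with them at 13.0 and 12.5 cpm (227 and 247 counts). Wnt1Cre-mTmG tail pNSCs (191, 199 and 173 counts, 8.73 ± 0.403 cpm) were 2.13-fold above Wnt1Cre-mTmG brain NSCs (47, 43 and 47 counts, 4.11 ± 0.121 cpm). Sox2-GFP brain NSCs had 8.75 ± 0.595 cpm (n = 3), lung pNSCs 8.59 ± 0.934 (n = 2) and Sox2-GFP lung pNSCs 5.27 ± 0.537 (n = 3). DRG pNSCs had 9, 14 and 11 counts and DRG NCSCs 15, 14 and 16, and these groups overlapped at 1.07 ± 0.308 and 0.763 ± 0.148 cpm. Lung and tail cells each had 1 and 0 counts, so Zic5 was not detectable there at this depth.

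Across the 11 groups, every library was over 3 counts in 8 groups for Zic1, 10 for Zic2, 6 for Zic4 and 9 for Zic5. Neighbours in the order of levels whose libraries overlapped were the Sox2-GFP brain and lung groups for Zic1, brain NSCs and Wnt1Cre-mTmG tail pNSCs for Zic2, and lung pNSCs and Sox2-GFP lung pNSCs for Zic2 and Zic4. For Zic4, tail cells also overlapped with DRG NCSCs, and Wnt1Cre-mTmG brain NSCs with the tail pNSCs of that experiment. For Zic5, brain NSCs overlapped with tail pNSCs, Sox2-GFP brain NSCs with Wnt1Cre-mTmG tail pNSCs, the latter with lung pNSCs, and DRG pNSCs with DRG NCSCs. Groups at 0 or 1 count a library at the low end of the order also overlapped for Zic1, Zic4 and Zic5.

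To rank the members within a group, levels were taken per length, as cpm per kilobase of the union of a gene's exons. On this scale Zic1 was the leading member in brain NSCs, at 13.9 against 8.68 for Zic2, 2.68 for Zic5 and 0.363 for Zic4. In Sox2-GFP lung pNSCs the values were 20.7 for Zic1, 7.06 for Zic2, 1.08 for Zic5 and 0.545 for Zic4. Zic2 led in tail pNSCs, at 12.4 per kilobase against 2.61 for Zic5, in Wnt1Cre-mTmG tail pNSCs, at 8.58 against 0.137 for Zic1, and in Wnt1Cre-mTmG brain NSCs, at 3.42 against 0.828 for Zic1. The exon union of Zic4 is 10335 bases against 3891 for its longest coding transcript. With the latter as length, Zic4 was 0.964 per kilobase in brain NSCs against 2.75 for Zic5, but it was above Zic5 in Sox2-GFP lung pNSCs (1.45 against 1.11), Sox2-GFP brain NSCs (1.92 against 1.84) and DRG NCSCs (0.283 against 0.160). The order of Zic4 and Zic5 in these groups thus depends on the length used.

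Ratios of counts within a library, which are not corrected for length and serve only to compare groups, were taken where both genes were over the floor. Zic1 had 16.2 to 21.0 counts per Zic4 count on average in the brain and lung stem cell groups where Zic4 was over the floor, 8.54 ± 2.28 (n = 3) in DRG NCSCs and 7.04 ± 1.89 (n = 2) in tail cells. Zic2 had 1.86 to 4.74 counts per Zic5 count over the 9 groups in which both were detected. Zic1 counts per Zic2 count, which could be taken in more groups than those per Zic4 count, ran from 0.0317 in Wnt1Cre-mTmG tail pNSCs and 0.480 in Wnt1Cre-mTmG brain NSCs to 5.79 in Sox2-GFP lung pNSCs and 35.5 in tail cells. Over the 11 group means of log2(cpm + 1), Pearson's r was 0.98 for Zic1 and Zic4 and 0.98 for Zic2 and Zic5, while it was 0.36 to 0.44 between genes of different pairs. These are descriptions over groups scaled together that differ in depth, and carry no test. Among 17388 genes, 0 genes outside the family were closer to Zic1 than Zic4, and 0 were closer to Zic2 than Zic5.

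**Figure D2:**
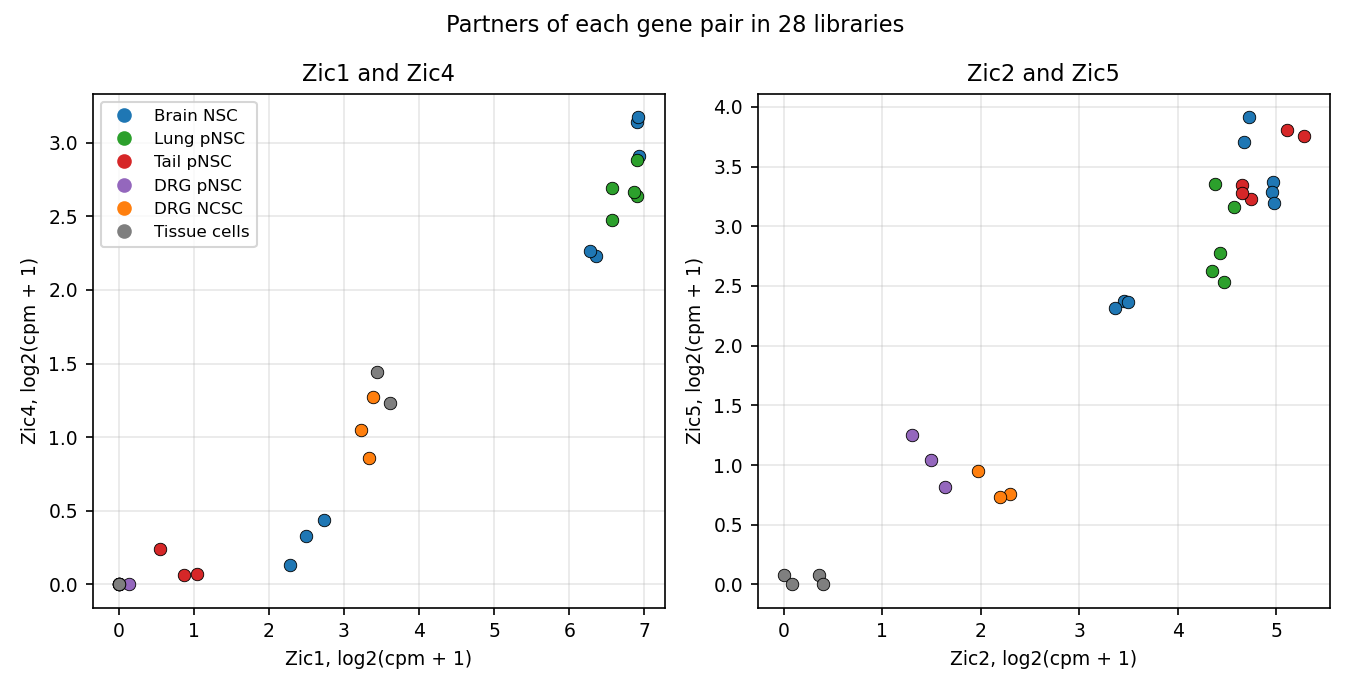
Levels of Zic1 against Zic4 and of Zic2 against Zic5 as log2(cpm + 1), with a point for each of 28 libraries coloured by origin. Tail pNSCs lie at or near the origin in the Zic1 and Zic4 plot and near the highest brain NSC libraries in the Zic2 and Zic5 plot.

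The first tests asked whether lung pNSCs differ from brain NSCs. A gene was called when the edgeR adjusted p was under 0.05 and the log2 fold change at least 1 in size. In the first experiment 8.71% of 16948 genes were called, and 0 of the 3 Zic genes tested. Zic2 had a log2 fold change of -0.25 ± 0.0915 (SE, adjusted p = 0.0194), Zic5 of -0.61 ± 0.133 (adjusted p = 2.48e-05) and Zic4 of 0.40 ± 0.217 (adjusted p = 0.135). The number with an unadjusted p under 0.05 was 2, and DESeq2 called 0 as well. In the Sox2-GFP experiment 15.7% of 16234 genes were called and again 0 of 3, with 3 at an unadjusted p under 0.05 and 0 called by DESeq2. There the log2 fold changes were -0.57 ± 0.0602 for Zic2 (adjusted p = 1.15e-20), -0.41 ± 0.117 for Zic4 (adjusted p = 0.000875) and -0.73 ± 0.114 for Zic5 (adjusted p = 4.23e-10). Zic5 was thus lower in lung pNSCs than in brain NSCs in both experiments, by less than the threshold. For Zic2 this held in the Sox2-GFP experiment, while in the first it rested on single libraries. There the log2 fold change was -0.14 without lung pNSC replicate 1 (edgeR adjusted p = 0.391), -0.22 without brain NSC replicate 1 (adjusted p = 0.107) and -0.22 with DESeq2 (adjusted p = 0.251). The Zic1 means were 1.19-fold apart in the first experiment and overlapped in the other. Astrocyte markers summed to 80.0 to 82.2 cpm in Sox2-GFP lung pNSCs against 914 to 920 in Sox2-GFP brain NSCs, and each marker was lower. In the first experiment they summed to 77.6 to 84.8 cpm in lung pNSCs against 126 to 128 in brain NSCs. There Aldh1l1 and Gfap were lower in lung pNSCs, and S100b and Aqp4 were higher. Aldh1l1 made the sum lower. The part of these markers was not tested. For the difference between the experiments in this lung effect, 14.1% of 17393 genes were called by edgeR and 0 of the 3 Zic genes, with 2 at an unadjusted p under 0.05 and 0 called by DESeq2.

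The next comparison set pNSCs against cells of their tissue. In lung pNSCs against lung cells 55.0% of genes were called, and all 4 Zic genes were higher. Lung cells had no more than 1 count of any of them, so each gene entered the test through the pNSC libraries, and the calls add nothing to the levels. The Zic1 mean of lung pNSCs exceeded that of lung cells by at least 536-fold and the Zic4 mean by at least 28.6-fold. The same held for Sox2-GFP lung pNSCs, which were compared with the same lung cell libraries, where 56.3% of genes were called. Zic1 was at least 672-fold higher there and Zic4 at least 32.2-fold.

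In tail pNSCs against tail cells, 46.7% of genes were called. Tail cells had 5 counts of Zic2 and at most 1 of Zic5 in a library, so these genes entered the test through the stem cell groups, and Zic4 shares the pattern of Zic1 in tail pNSCs by which the genes were chosen, so their calls are not used. Zic2 had a 119-fold higher mean in tail pNSCs. Zic5 was higher there by 426-fold in summed counts over summed library sizes with a counting interval from 76.1 to 16868, since tail cells had 1 count in all. The level of Zic4 was lower in tail pNSCs by at least 9.49-fold. Tail cells therefore held the Zic1 and Zic4 transcripts and almost none of Zic2 and Zic5, and tail pNSCs the reverse.

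Tail pNSCs and lung pNSCs were compared within the first experiment, in which 12.9% of genes were called. The level of Zic4 was lower in tail pNSCs by at least 31.0-fold, which is given with no test for the same reason. Zic2 had a log2 fold change of 0.77 ± 0.0878 (adjusted p = 1.93e-17) and Zic5 of 0.57 ± 0.135 (adjusted p = 7.17e-05), both under the threshold of 1. Astrocyte markers summed to 10.3 to 12.3 cpm in tail pNSCs against 77.6 to 84.8 in lung pNSCs, and their part was not tested. The lung line and the tail line came from adult and postnatal mice, so tissue and age cannot be told apart.

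**Figure D3:**
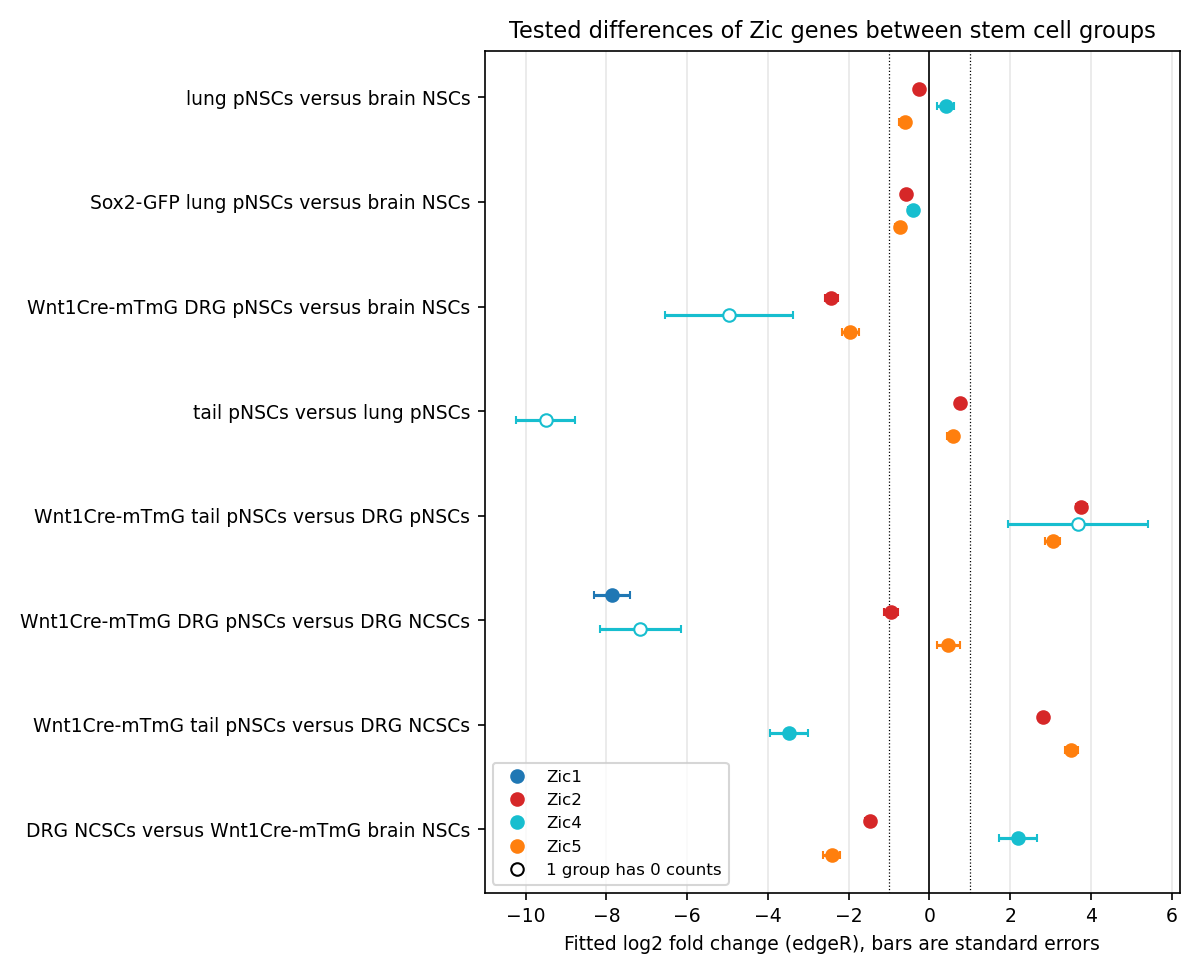
Fitted log2 fold changes with standard errors from edgeR for each Zic gene tested between stem cell groups, with dotted lines at the threshold of 1 in either direction. Open points mark comparisons in which a group had 0 counts, whose fitted size depends on the prior count and is not a bound, and Zic4 is not independent of the choice of genes where tail pNSCs enter or of the filter where DRG NCSCs enter. Zic2 and Zic5 lie on the same side of 0 except for DRG pNSCs versus DRG NCSCs.

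In DRG pNSCs against Wnt1Cre-mTmG brain NSCs, 9.53% of 14448 genes were called, and all 3 Zic genes tested were lower. Zic2 was 5.45-fold lower (log2 fold change -2.43 ± 0.159, adjusted p = 1.32e-09) and Zic5 3.85-fold lower (-1.96 ± 0.218, adjusted p = 1.11e-06). The call for Zic4 (adjusted p = 0.0182) rested on 8 counts in all brain NSC libraries against 0. It was lost without Wnt1Cre-mTmG brain NSC replicate 1 (adjusted p = 0.0626) or without DRG pNSC replicate 1 (adjusted p = 0.0521), and no fold is given since both groups are near the floor. DRG pNSCs were thus low for all 4 members, although the 6 neural stem cell markers summed to 6336 to 6373 cpm in them. The 4 astrocyte markers summed to 175 to 181 cpm in DRG pNSCs against 1125 to 1150 in these brain NSCs, and their part in the result was not tested.

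Wnt1Cre-mTmG tail pNSCs and DRG pNSCs differed in Zic2 and Zic5, with 18.0% of genes called. Zic2 was 13.7-fold higher in tail pNSCs (log2 fold change 3.76 ± 0.130, adjusted p = 7.14e-14) and Zic5 8.19-fold higher (3.05 ± 0.177, adjusted p = 8.11e-11). Zic4 had 6 counts in all against 0. Mesenchymal markers summed to 414 to 422 cpm in tail pNSCs against 29.1 to 32.7 in DRG pNSCs, and astrocyte markers to 97.4 to 102 against 175 to 181. Among the latter, Aldh1l1 and S100b were lower in tail pNSCs, and Gfap and Aqp4 were higher. The part of these markers was not tested. Both lines came from Wnt1Cre-mTmG mice of the same stage, and each may be a single clone.

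NCSCs of the DRG were set against every NSC group of their experiment. Against Wnt1Cre-mTmG brain NSCs, 36.9% of genes were called, and Zic2 was 2.83-fold lower in DRG NCSCs (log2 fold change -1.47 ± 0.121, adjusted p = 4.05e-09). Zic5 was 5.39-fold lower (-2.43 ± 0.201, adjusted p = 4.38e-09). Without replicate 3 the log2 fold changes were -1.37 for Zic2 and -2.57 for Zic5. Zic4 had 23, 30 and 14 counts in DRG NCSCs against 4, 1 and 3 in brain NSCs, with no overlap. It passed the filter on low counts in this experiment only through the NCSC libraries, so that it had to differ, and its tests against DRG NCSCs are not used. The Zic1 means were 1.90-fold higher in DRG NCSCs than in these brain NSCs, given with no test. Mesenchymal markers were over the floor for 6 of 6 genes in DRG NCSCs and summed to 2800 to 3448 cpm, against 33.2 to 33.9 in these brain NSCs, 29.1 to 32.7 in DRG pNSCs and 414 to 422 in Wnt1Cre-mTmG tail pNSCs. The 6 neuron markers summed to 711 to 748 cpm in DRG NCSCs against 967 to 981 in these brain NSCs. Of these markers only Map2 was lower in the NCSCs (120.6 against 955.7 cpm), and it made the sum lower. Tubb3 (300.1 against 11.3 cpm), Stmn2 (248 against 0.118 cpm), Snap25, Syt1 and Rbfox3 were all higher in the NCSCs. The part of such cells in the Zic differences from DRG NCSCs was not tested.

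In DRG pNSCs against DRG NCSCs, both from DRG tissue, 38.3% of genes were called, and this is a comparison in which Zic1 could be tested. Zic1 was lower in DRG pNSCs (log2 fold change -7.86 ± 0.440, adjusted p = 1.6e-11), with 1 count over 3 libraries against 155 to 200 per NCSC library. The ratio of summed counts over summed library sizes was 289 with a counting interval from 51.7 to 11455. Zic4 had 0 counts in DRG pNSCs, at least 3.94-fold below DRG NCSCs, given with no test since it was tested only through the NCSC libraries. Zic2 had a log2 fold change of -0.96 ± 0.179 (adjusted p = 9.95e-05), just inside the threshold, and -1.06 (adjusted p = 3.17e-06) without NCSC replicate 3. Zic5 had a log2 fold change of 0.47 ± 0.281 (adjusted p = 0.174). Without that library Zic1 was at -7.85 and Zic5 at 0.61 (adjusted p = 0.111). NCSCs were from adult wild-type and pNSCs from postnatal Wnt1Cre-mTmG mice, so cell type, age and genotype cannot be told apart.

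In Wnt1Cre-mTmG tail pNSCs against DRG NCSCs, 37.9% of genes were called. Zic2 was 7.10-fold higher in tail pNSCs (log2 fold change 2.80 ± 0.0981, adjusted p = 1.63e-14) and Zic5 11.4-fold higher (3.52 ± 0.159, adjusted p = 6.96e-13). Without NCSC replicate 3 the values were 2.71 and 3.66. Zic4 had 1, 4 and 1 counts in tail pNSCs, below every DRG NCSC library. Zic1 had an 11.4-fold lower mean in tail pNSCs, with no overlap and no test. The levels of Zic1 and Zic4 were thus lower and those of Zic2 and Zic5 higher in the tail line. The comparisons of this experiment share libraries, so they are given side by side only.

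Of the 6 nearest genes to Zic1 and Zic4 in the table, the 3 detected in every group (Adamts7, Tbc1d2b and Plscr1) had an r with Zic1 from -0.49 to 0.21 over the 11 group means. The transcript A730094K22Rik, 7105 bases away, and Plscr5 were near 0 in all groups. The phospholipid scramblase gene Plscr1, 860402 bases away, had its highest level in lung cells (57.9 ± 0.680 cpm), where Zic1 was at 0. By contrast, the non-coding transcript 2610035F20Rik (chr14:122470284-122475199, minus strand), which lies between Zic5 and Zic2, had a group-mean r of 0.97 with Zic2 and 0.96 with Zic5 over the 11 groups. It had 64 and 63 counts in tail pNSCs, 53 and 40 in brain NSCs, 3, 3 and 3 in DRG pNSCs, 0 and 0 in lung cells and 1 and 4 in tail cells. Its levels were thus high and low in the groups where Zic2 and Zic5 were. Clybl (r = 0.83 with Zic5) and Pcca (r = 0.78), metabolic enzyme genes on either side, were detected in every group and varied by 4.48-fold and 3.77-fold between the highest and lowest group. Other neighbours detected in every group went the other way, with an r with Zic5 of -0.74 for Tm9sf2, -0.75 for Tmtc4 and -0.63 for Ggact.

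**Figure D4:**
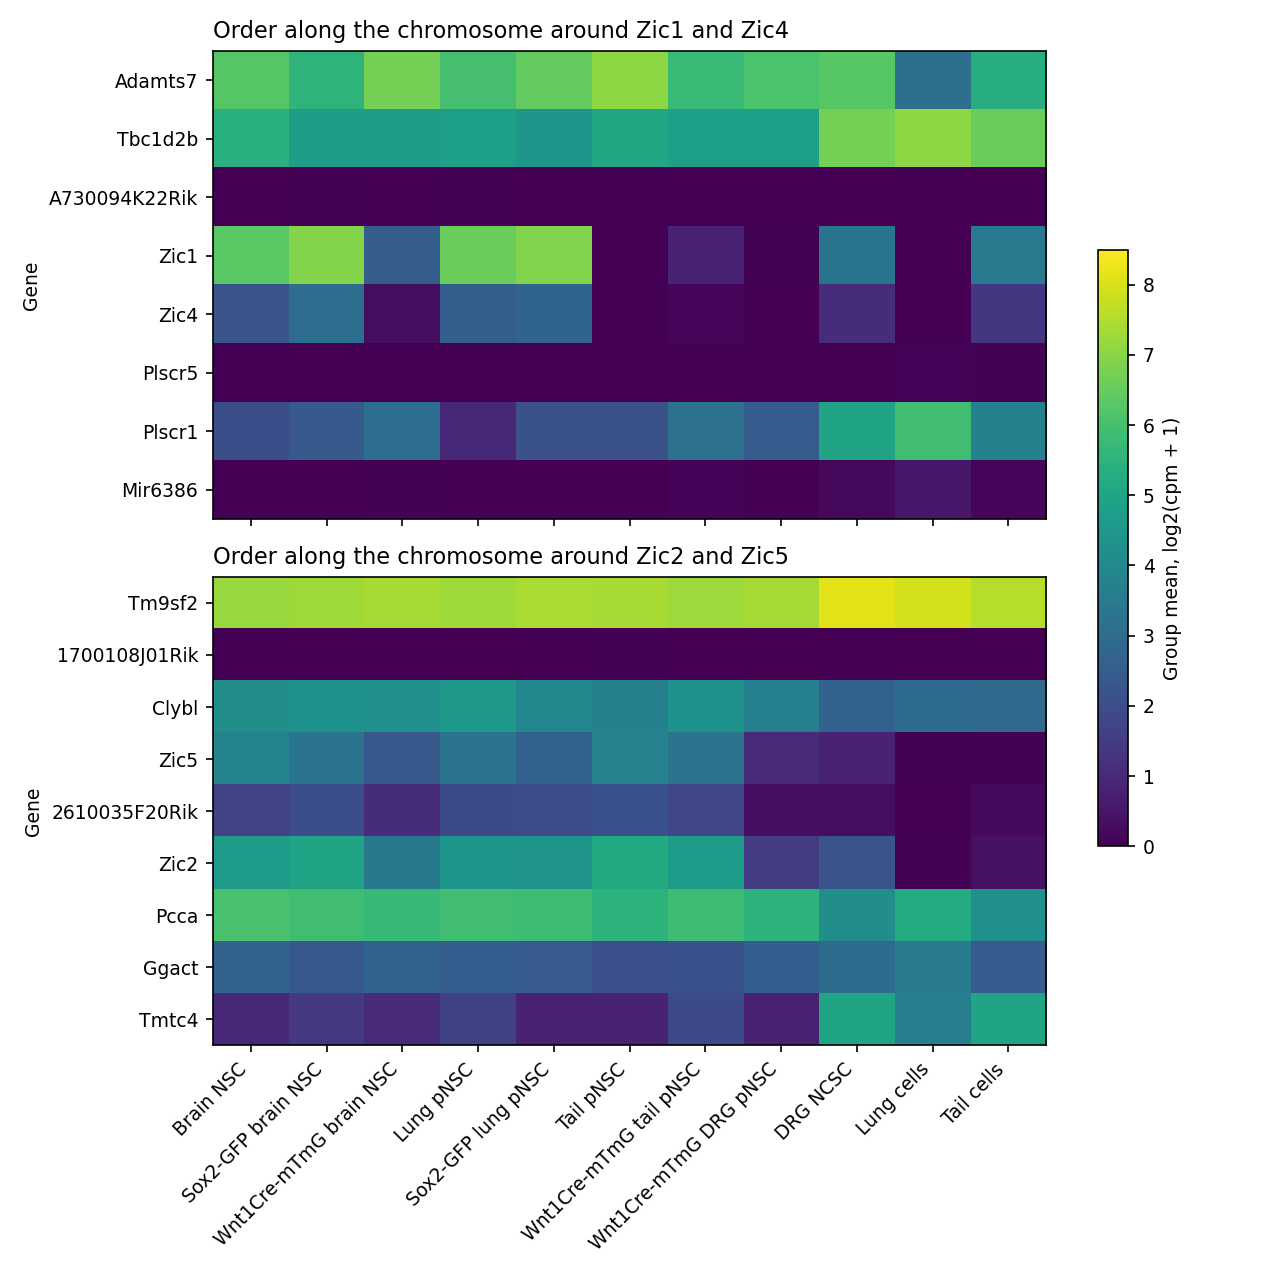
Group means as log2(cpm + 1) (colour) for the Zic genes and the nearest genes in the table, in their order along the chromosome and not to scale, in the 11 groups. 2610035F20Rik, between Zic5 and Zic2, is low in DRG pNSCs, DRG NCSCs, lung cells and tail cells, as Zic5 is.

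Across the genome, the 5 genes outside the family with group means closest to Zic1 were Cnpy1 (r = 0.87), Tdrd6, Dip2a, Lcat and Mfn2, and those closest to Zic4 were Lcat (0.90), Tdrd6, Cnpy1, Mfn2 and Mbd5. Cnpy1, a gene with known activity at the midbrain and hindbrain boundary, ranged from 0 to 58.1 cpm over the groups. Closest to Zic2 were 2610035F20Rik (0.97), Socs6, Zfpm2, Ss18l1 and Sbf2, and to Zic5 C530044C16Rik (0.96), Sbf2, 2610035F20Rik, Igdcc3 and Socs6. These values describe 11 group means chosen from 17388 genes.

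The GLI and GLIS genes have zinc fingers that resemble those of Zic, and Gli1, Gli2 and Gli3 carry Hedgehog signals. In lung pNSCs against brain NSCs of the first experiment their median log2 fold change was 0.26 (all genes 0.00), and Gli3 (0.90 ± 0.0653, SE) and Gli2 (0.52 ± 0.117) had an adjusted p under 0.05 in edgeR with a fold change under the threshold. In the Sox2-GFP experiment Gli3 was higher (1.65 ± 0.0582) and Glis1 lower (-1.11 ± 0.199). In tail against lung pNSCs, where 12.9% of all genes were called, 2 of 6 were higher, Gli2 (1.19 ± 0.0952) and Glis1 (1.33 ± 0.391). In DRG pNSCs against brain NSCs, Gli2 (-2.59 ± 0.260) and Glis3 (-1.23 ± 0.0903) were lower and Glis1 (1.35 ± 0.311) was higher. Gli2 had 1.64 cpm in DRG pNSCs and 26.2 cpm in Wnt1Cre-mTmG tail pNSCs, where it was higher (4.00 ± 0.211). In DRG pNSCs against DRG NCSCs 4 of 6 were lower, with 38.3% of all genes called (median -1.43, all genes 0.00).

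Genes of the dorsal neural tube and roof plate, where Zic genes are active in the embryo, were given as 19 genes, of which 15 passed the filter in the first experiment. In lung pNSCs against brain NSCs 4 were higher and 1 lower, with 8.71% of all genes called (median 0.34, or 0 with genes at 0 in a group held at their bound, all genes 0.00). Pax3, a marker of dorsal progenitors and neural crest, had 22.8 cpm in lung pNSCs and 0 in brain NSCs and tail pNSCs. It was thus on in the lung line and off in the tail line, as Zic1 was, but unlike Zic1 it was off in the brain line. In the Sox2-GFP experiment 1 was higher and 6 lower of 11 tested, with 15.7% of all genes called (median -2.55, all genes 0.00), and Pax3 had 25.4 cpm in lung pNSCs and 20.8 in brain NSCs. In DRG pNSCs against brain NSCs 4 were higher and 2 lower of 11, with 9.53% of all genes called (median 0.29, all genes 0.01), among them Pax3 (9.45 against 0 cpm) and Pax7 (6.97 against 0.0322 cpm). In this and the Sox2-GFP experiment Pax7 passed the filter only through the group where it was high. Its calls, which are in these counts, therefore add nothing to its levels. DRG pNSCs thus had Pax3 and Pax7 transcripts and almost no Zic1.

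Of 9 genes of the cerebellar granule cell lineage, which needs Zic1, 6 passed the filter in the first experiment. Cbln3 alone was called between lung pNSCs and brain NSCs (2.06 ± 0.453), against 8.71% of all genes, and Cbln1 (2.70 ± 0.244) and Neurod1 (1.47 ± 0.229) were higher in tail than in lung pNSCs. Atoh1, which defines granule cell progenitors and is also on the dorsal list, had 0 or 1 count in total in every NSC, pNSC and NCSC group. In the Sox2-GFP lines 3 of 5 were called between lung pNSCs and brain NSCs, where 15.7% of all genes were called, Cbln3 in the opposite direction (-1.35 ± 0.341), with Neurod1 (3.88 ± 0.291) and Cntn2 (1.37 ± 0.437) higher. Neurod1 and Cntn2 passed the filter there only through lung pNSCs, so their calls add nothing to their levels. Cbln3 had 69 counts in all in these brain NSCs and 30 in the lung pNSCs. In DRG pNSCs against brain NSCs, with 9.53% of all genes called, Cbln1 alone was called (1.10 ± 0.157). These lists were chosen with earlier results of the data known, and their counts are descriptions.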

How the data were processed

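RNA-seq of 28 libraries was used. By the study's methods, poly(A) RNA libraries were sequenced from a single end, and the processing notes name HISAT2, Cufflinks, HTSeq and GRCm38, with annotation release and strand setting not given in the sources used here. The deposited values are raw counts per gene, as whole numbers for 28244 genes. The study's own quantile normalization was not used. Low genes were removed by filterByExpr, with a minimum of 10 counts and 15 in total, and libraries were scaled by TMM and fitted with the quasi-likelihood test of edgeR 4.0.16 in R 4.3.3, over all groups of an experiment (16948, 14448 and 16234 genes tested in the first, Wnt1Cre-mTmG and Sox2-GFP experiments), with Benjamini-Hochberg adjustment over all genes tested. The Sox2-GFP fit included the lung cells of the first experiment. DESeq2 1.42.0 was an alternative. The procedure was tested on simulated data. Folds against a group at 0 use 3 counts per library as floor, and ratios with a 95% exact counting interval are of summed counts over summed library sizes, while other folds are ratios of mean cpm. Zic genes not listed in the opening were not analysed here, and a further neural stem cell marker is not reported here. Named genes were the 4 Zic genes, their neighbours in the table, the 5 genes most alike by Pearson's r of log2(cpm + 1) group means, and called genes of the gene lists. The members and lists were chosen with earlier results of these data known. Gene positions are from GENCODE M21 and promoters from RefSeq on GRCm38.p6.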

Additional observations from a re-analysis of the deposited data

Results flagged for a closer look

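The difference between lung pNSCs and brain NSCs was not the same in both experiments for Zic4 and Zic2, by the edgeR interaction test. For Zic4 the log2 difference was 0.40 in the first experiment and -0.41 in the Sox2-GFP experiment, and the interaction was 0.82 ± 0.233 (SE, adjusted p = 0.00392). Over the alternatives it ran from 0.66 to 0.99, with adjusted p from 0.000908 to 0.0786. For Zic2 the interaction was 0.33 ± 0.109 (adjusted p = 0.0104), from 0.23 to 0.47 over the alternatives with adjusted p from 0.00158 to 0.133. Both lie under the log2 threshold of 1, and the experiments differ in mouse line and age, which cannot be told apart.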

How the results depend on the processing

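Leaving out a library, DESeq2, other scaling and other filters reversed no direction among the values compared. With only genes of mean count at least 100, members under that level were no longer tested, and the called members became 0 for tail against lung pNSCs, and 1 each for DRG pNSCs against brain NSCs, DRG NCSCs against brain NSCs, DRG pNSCs against DRG NCSCs, Wnt1Cre-mTmG tail pNSCs against DRG NCSCs and against DRG pNSCs. They became 3 for lung pNSCs against lung cells in the first experiment and 2 for tail pNSCs against tail cells. Over all genes that filter left 842 calls against 1476 between lung pNSCs and brain NSCs (1487 against 2556 in the Sox2-GFP lines, 1566 against 2457 for the interaction), 5803 against 9327 and 5581 against 9136 between either lung line and lung cells, 4775 against 7916 for tail pNSCs against tail cells, 1297 against 2180 for tail against lung pNSCs, 679 against 1377 for DRG pNSCs and 3174 against 5336 for DRG NCSCs against brain NSCs, 3291 against 5540 and 3255 against 5472 for DRG and tail pNSCs against DRG NCSCs, and 1508 against 2596 for tail against DRG pNSCs. Each pair gives the count with that filter, then without it. Between DRG pNSCs and DRG NCSCs the called members ran from 1 to 3 when a library was left out: 1 without NCSC replicate 1 or 2, where Zic4 no longer passed the filter, and 3 without replicate 3. These counts include Zic4, whose tests against DRG NCSCs are not used. Zic2 in that comparison passed the fold threshold under 5 alternatives, at -1.01 to -1.09. Scaling by library total alone gave a Zic2 log2 ratio of Wnt1Cre-mTmG to first brain NSCs of -1.18, and the cause was not tested. The Zic4 interaction had an adjusted p over 0.05 only when libraries were thinned to the smallest (0.0786), and the Zic2 interaction only without lung pNSC replicate 2 (0.133). Replicate numbers did not pair the libraries (correlations of same-numbered deviations -0.026 to 0.025), and a fit with the replicate block changed no call of a member (lung pNSCs against brain NSCs, Zic2 -0.25). In the Wnt1Cre-mTmG lines Zic4 had 0 to 4 counts a library, so differences among them were not detectable with precision.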
